A study of Homo sapiens with 9 samples.

Results

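Natural antisense transcripts that carry the name of the gene they lie opposite were followed, together with those sense genes, in HMEC-1 cells exposed to AMI-5, to AMI-1 or to solvent. A row was a member when its symbol ended in -AS and a number. CYP1B1-AS1 was left aside. The sense partner was the row whose symbol is the text before -AS. There were 242 antisense members and 218 sense partners among 18690 rows in all. Of the members, 239 were measured in all 9 libraries, 223 of them with a measured sense row, which gave 223 pairs on 217 distinct sense genes. The other 16 members had no sense row, among them the antisense transcripts of the HOX clusters, A2ML1-AS1 and C17orf76-AS1.

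HMEC-1 cells are endothelial cells of small human skin vessels made immortal, and the medium held 5.5 mM glucose. One group received AMI-5 (the disodium salt of a brominated xanthene benzoate) and another AMI-1 (a symmetric naphthalenesulfonic acid urea), each at 100 µM in DMSO for 16 h. The control group received DMSO alone for 16 h. Both compounds are known as inhibitors of protein methyltransferases, and the comparison asks how transcript levels differ after each. Each group had 3 libraries of poly-A RNA, numbered 1 to 3. The labels do not say that these came from separate cultures, so p-values measure only the spread between these libraries.

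Antisense transcripts are made from the DNA strand opposite to a gene. Some start at the gene's own promoter and run away from it, some begin inside the gene, and others start downstream and run into its 3′ end. Many are long non-coding RNAs of low abundance. A few are known to act on their sense gene in cis, by transcription through its promoter, by recruiting chromatin factors or by pairing with its RNA, while others act elsewhere in the cell or have no known role. In counts whose strand setting is not given in the sources used here, reads in exons that overlap on both strands cannot be told apart, and this holds for every pair below whose exons overlap.

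Total counts ran from 14454113 to 24693020 per library, and the antisense members held 0.257% to 0.275% of them. A fit by edgeR without regard to the library number called no gene of 18284 (0%) in AMI-1 against control, none (0%) in AMI-5 against control and none (0%) in AMI-5 against AMI-1. At an unadjusted p under 0.05 it held 3, 11 and 12 of 239 antisense members in these contrasts, beside 187, 485 and 478 of 18284 genes. The Wald test of DESeq2 called 0, 0 and 0 members, beside 3, 19 and 36 genes. Libraries of the same number share a prefix in their labels and deviated together, so the values below come from a second fit with the library number as a block, in which "called" means an adjusted p under 0.05 over all 18284 genes. That fit called 0.41% of genes in AMI-1 against control, 10.9% in AMI-5 against control and 5.1% in AMI-5 against AMI-1. Of 10 endothelial markers 9 were measured, at a summed level of 718 to 978 CPM (counts scaled to a common library size) with AMI-5, 933 to 1183 CPM with AMI-1 and 866 to 1240 CPM in control. With AMI-5 against control 5 of these 9 fell and ESAM rose, and their part in the results below was not tested. In such bulk libraries fewer cells of a type and less RNA per cell cannot be told apart. None of 3 keratinocyte markers was measured, and 1 of 4 leukocyte markers and 1 of 3 melanocyte markers were, each at under 5 CPM. All 5 pericyte and smooth muscle markers were measured, at a summed 172 to 324 CPM with AMI-5, 222 to 379 CPM with AMI-1 and 204 to 436 CPM in control. With AMI-5 against control 1 of the 5 fell, CSPG4 (-0.32, adjusted p = 0.0467), and 0 rose, and their part in the results was not tested either.

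The antisense members were scarce beside their sense genes. Their mean level over the 9 libraries had a median of 3.30 CPM and ran from 0.565 to 278 CPM, against a median of 54.1 CPM for the sense partners. There were 37 members under 1 CPM, 52 at 10 CPM or more and 4 at 100 CPM or more. No member had 0 counts in any library. No row of the deposited counts had a mean under 10, so scarcer antisense transcripts are not seen here. Per kilobase of exon, with lengths from GENCODE 29, the median in control was 1.63 CPM per kb for antisense and 8.44 CPM per kb for sense over 212 pairs with lengths. The antisense level was a median 24.8% of the sense level on that scale, with 43 pairs in which it was the higher. THAP9-AS1 stood highest against its partner, at 1591% of the level of THAP9 per kb.

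GENCODE 29 annotated 230 of the 242 members and gave 183 of them the type antisense, 22 processed transcript and 17 lincRNA. It also listed 3 as protein coding: SPTY2D1-AS1, TMEM106A-AS1 and TOPORS-AS1. By their positions there, 73 pairs overlapped at the start of the sense gene, 68 antisense genes lay inside the sense gene and 47 overlapped its 3′ end. A further 18 ran away from the sense start without overlap, 5 spanned the sense gene, and 1 lay on the same strand, so that its name does not match its annotation. The remaining 11 pairs were not placed.

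The most abundant members, all named as antisense RNAs, mostly had groups that overlapped. C17orf76-AS1, named LRRC75A-AS1 in GENCODE 29 and a host of small nucleolar RNAs, had 303, 303 and 290 CPM with AMI-5, 248, 264 and 264 CPM with AMI-1, and 256, 295 and 281 CPM in control. It stood 0.21 ± 0.05 (log2, SE) higher with AMI-5 than with AMI-1 (adjusted p = 0.0332), with the groups apart, but was not called against control with AMI-5 (0.11, adjusted p = 0.208) or AMI-1 (-0.10, adjusted p = 0.559). That call ended when AMI-1 library 1 or 2, AMI-5 library 1 or 2, or control library 1 or 3 was left out, with adjusted p-values of 0.0510 to 0.265. FGD5-AS1 averaged 230 ± 39.6, 223 ± 30.8 and 211 ± 37.1 CPM with AMI-5, with AMI-1 and in control (SD, n = 3 each). OIP5-AS1, the RNA known as Cyrano in vertebrates, averaged 142 ± 22.2, 152 ± 20.9 and 138 ± 23.1 CPM in the same groups, and HNRNPU-AS1 103 ± 18.4, 102 ± 21.2 and 99.4 ± 33.0 CPM. The groups of these 3 overlapped and none was called in any contrast. In RefSeq the name HNRNPU-AS1 is a synonym of HNRNPU. Whether its counts are those of a separate antisense RNA was not tested. PXN-AS1, RUSC1-AS1, H1FX-AS1 and PCBP1-AS1, at 57.3 to 81.5 CPM over all libraries, completed the 8 highest, and of them only PCBP1-AS1 was called.

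Library number moved these transcripts more than treatment did. On log2(CPM + 0.5), the means of the 3 numbers spanned a median of 0.35 and the means of the 3 treatments a median of 0.23, and the range was wider by number for 170 of 239 members. On this scale, where the added 0.5 CPM narrows the ranges of scarce members, there were 24 members with a range over 2-fold by number and 0 by treatment. The fitted changes given below did exceed 2-fold for A2ML1-AS1 with AMI-5 against control and for KIAA1984-AS1 between the compounds. BOK-AS1 averaged 5.28 CPM in the libraries numbered 1, 0.604 CPM in those numbered 2 and 3.30 CPM in those numbered 3. H1FX-AS1, opposite a linker histone gene, averaged 87.4, 25.3 and 59.1 CPM by number. The libraries numbered 2 were the lowest for 128 members and the highest for 82, so the shift by number was not in 1 direction.

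**Figure D1:**
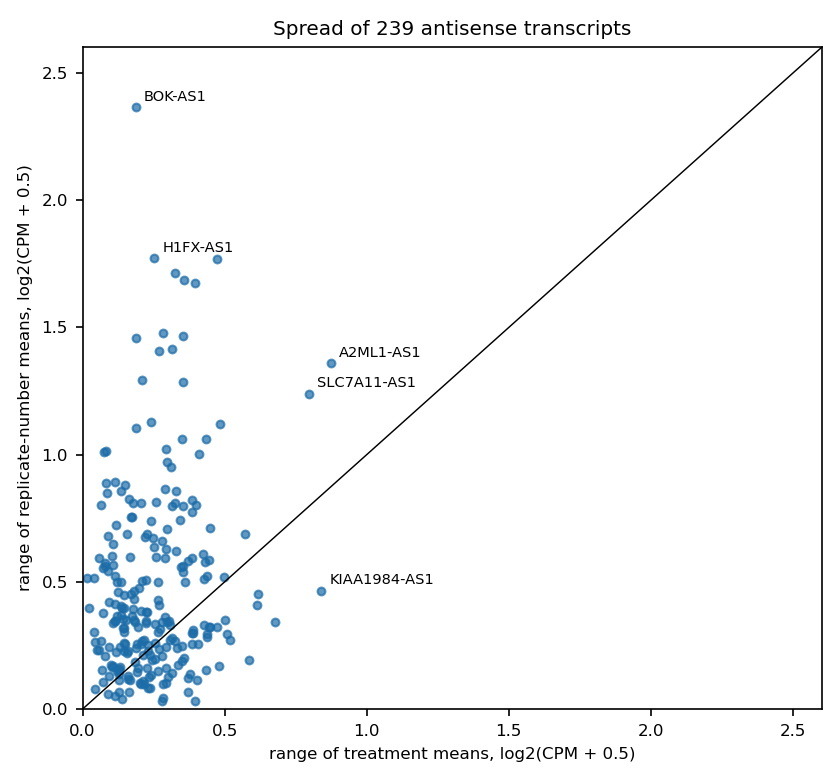
Range of the treatment means (x axis) against range of the library-number means (y axis) for each of 239 antisense transcripts, both on log2(CPM + 0.5), with a line where the ranges are equal. Of the points 170 lie above the line, and BOK-AS1 and H1FX-AS1 are among the farthest from it.

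With AMI-5 against control 24 antisense members were called, 11 higher and 13 lower (17 higher and 13 lower with a correction for transcript GC content). That is 10.04% of the 239, beside 10.9% of all genes, of which 3.44% were higher and 7.51% lower. The median change of the members was 0.02 (log2), against -0.005 over all genes tested. The share called was thus close to that of all genes. With the GC correction it was 12.6% of the members and 13.6% of all genes. The calls rested on few libraries: without AMI-5 replicate 1 and without control replicate 3 only 3 of the 24 were called, without AMI-5 replicate 2 and without control replicate 1 only 5, without AMI-1 replicate 1 there were 15, without control replicate 2 there were 17, without AMI-5 replicate 3 there were 20, and without AMI-1 replicate 2 or 3 all 24. SLC7A11-AS1 and KIAA1984-AS1 were called in each of these 9 fits. Calls over all genes fell as well, from 2002 to 155 without AMI-5 replicate 1 and to 310 without AMI-5 replicate 2. They fell to 281 without control replicate 3 and to 320 without control replicate 1, so the loss was not particular to the antisense members.

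SLC7A11-AS1 rose together with its sense gene. SLC7A11 encodes the light chain of the cystine and glutamate antiporter, which brings in cystine for glutathione synthesis, and the antisense gene overlaps its 3′ end with 14.04% of the antisense exon bases shared in GENCODE 29. SLC7A11-AS1 had 3.52, 9.996 and 5.07 CPM in AMI-5 libraries 1 to 3, 2.24, 5.66 and 3.74 CPM in AMI-1 libraries, and 2.01, 5.14 and 2.68 CPM in control libraries. The groups overlapped, because number 2 was the highest in each, but the AMI-5 library exceeded the control library in 3 of 3 numbers. The change was 0.91 ± 0.14 (log2, SE), with an adjusted p of 0.000937, and stayed at 0.84 after a correction for transcript GC content. SLC7A11 itself had 53.7, 125 and 69.7 CPM with AMI-5, 25.8, 59.8 and 43.8 CPM with AMI-1, and 28.2, 58.7 and 36.6 CPM in control. It rose by 0.99 ± 0.08 (log2, SE; adjusted p = 7.58e-07), the lowest adjusted p of any sense partner. For each 100 counts of SLC7A11 there were 6.56, 7.99 and 7.27 antisense counts with AMI-5, 8.70, 9.45 and 8.53 with AMI-1, and 7.13, 8.75 and 7.32 in control, so the ratio of the pair was not higher with AMI-5 than in control.

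KIAA1984-AS1 rose while its sense gene did not. In GENCODE 29 this antisense gene is CCDC183-AS1, which overlaps the 3′ end of a gene for a coiled-coil protein. It had 4.13, 2.75 and 4.10 CPM with AMI-5, 2.45, 1.64 and 1.41 CPM with AMI-1, and 2.28, 1.57 and 1.77 CPM in control. Each AMI-5 library lay above every AMI-1 and control library. The change was 0.98 ± 0.19 (log2, SE; adjusted p = 0.00352) against control. KIAA1984 averaged 11.4 ± 4.87 CPM with AMI-5, 13.5 ± 8.73 CPM with AMI-1 and 13.9 ± 6.12 CPM in control (SD, n = 3 each) and was not called (-0.30, adjusted p = 0.123). There were 25.7, 43.2 and 35.4 antisense counts per 100 sense counts with AMI-5, 10.5, 24.0 and 13.6 with AMI-1, and 11.6, 21.0 and 12.1 in control. The AMI-5 ratios lay above all others.

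**Figure D2:**
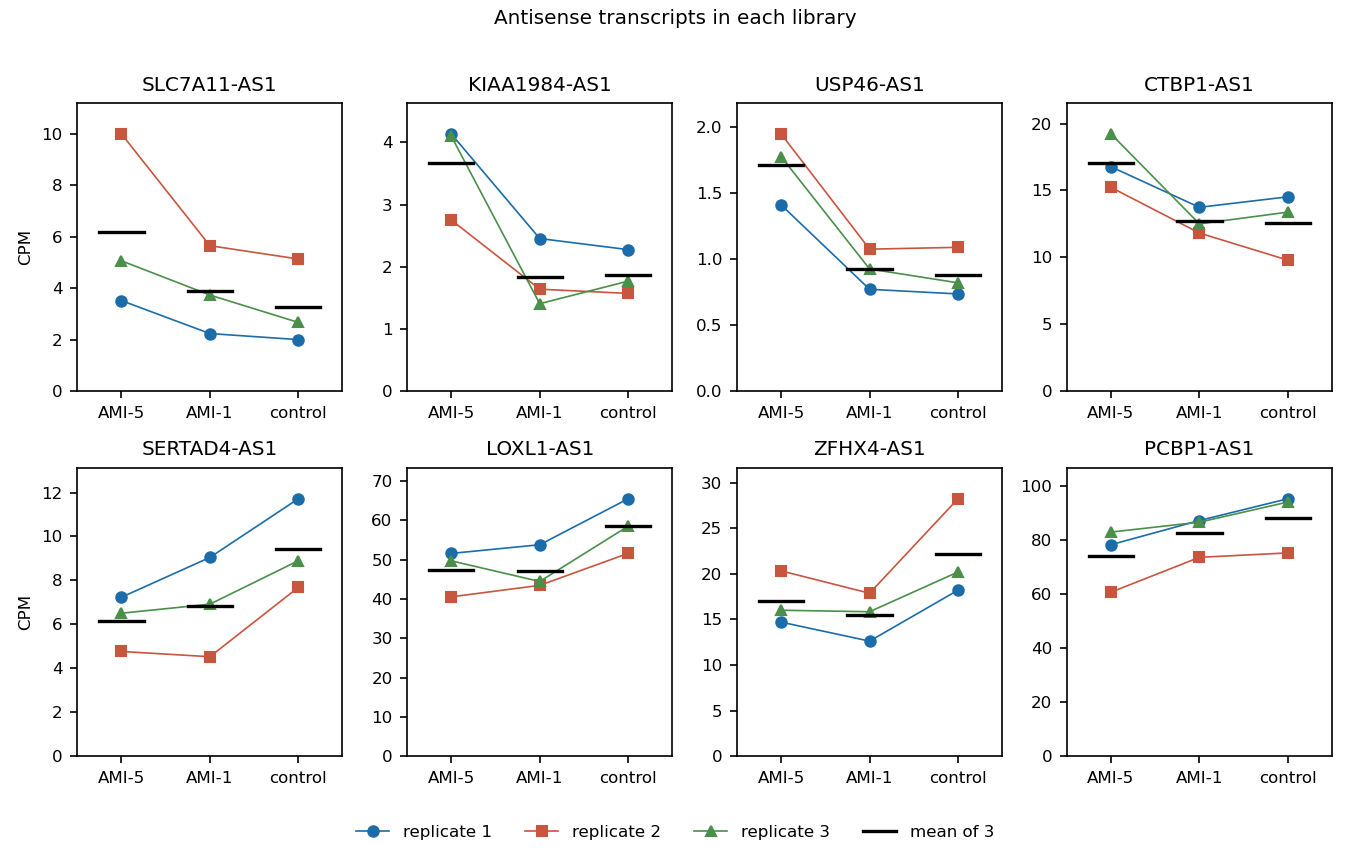
Level of 8 antisense transcripts (y axes, CPM from 0) in each AMI-5, AMI-1 and control library, with lines joining libraries of the same number and bars at the mean of 3. KIAA1984-AS1, USP46-AS1 and CTBP1-AS1 stand higher in every AMI-5 library than in any control library, and SERTAD4-AS1 and LOXL1-AS1 lower.

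In the pairs of CTBP1 (a transcriptional corepressor) and SRRM2 (a scaffold protein of the splicing machinery) the antisense transcript rose and the sense gene fell. CTBP1-AS1 had 16.8, 15.2 and 19.2 CPM with AMI-5, 13.7, 11.8 and 12.5 CPM with AMI-1, and 14.5, 9.80 and 13.4 CPM in control. The AMI-5 libraries lay above all others, and the rise was 0.45 ± 0.10 (log2, SE; adjusted p = 0.0101). It was not called without AMI-5 replicate 2 (0.0722) or control replicate 3 (0.0840). CTBP1 averaged 135 ± 38.0 CPM with AMI-5 and 162 ± 56.6 CPM in control (SD, n = 3 each), and fell by 0.24 ± 0.06 on the log2 scale (adjusted p = 0.0225). There were 10.3, 16.6 and 12.7 antisense counts per 100 sense counts with AMI-5, 7.40, 11.4 and 8.53 with AMI-1, and 6.74, 9.54 and 8.04 in control.

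SRRM2-AS1 had 2.30, 2.08 and 2.11 CPM with AMI-5, 2.17, 1.47 and 1.17 CPM with AMI-1, and 1.74, 0.907 and 1.17 CPM in control. All AMI-5 libraries lay above all control libraries, and the rise was 0.77 ± 0.22 (log2, SE; adjusted p = 0.0343). It was not called without any 1 of the AMI-5 or control libraries (adjusted p-values of 0.0765 to 0.158). SRRM2 was far more abundant, at 889 ± 84.5 CPM with AMI-5 and 1017 ± 85.0 CPM in control (SD, n = 3 each), and fell by 0.19 ± 0.05 on the log2 scale (adjusted p = 0.0173). The falls of both sense genes depended on the correction for GC content, after which neither was called: CTBP1 had an adjusted p of 0.131 and SRRM2 of 0.0565. They depended on single libraries too. CTBP1 was not called when AMI-1 library 1, AMI-5 library 1 or 2, or control library 1 or 3 was left out (0.0605 to 0.281), and SRRM2 without AMI-5 replicate 1 or 2 or control replicate 1 or 3 (0.0961 to 0.181). The ratio of each pair is a description and was not tested.

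USP46-AS1, opposite the gene of a deubiquitinase, rose with no call of its sense gene. It had 1.41, 1.95 and 1.77 CPM with AMI-5, 0.771, 1.07 and 0.925 CPM with AMI-1, and 0.736, 1.09 and 0.820 CPM in control. Each AMI-5 library lay above every other. The rise was 0.97 ± 0.23 (log2, SE; adjusted p = 0.0136), and it was not called without AMI-5 replicate 1 or 2 or control replicate 1 or 3 (adjusted p-values of 0.0705 to 0.141). USP46 averaged 32.8 ± 7.24 CPM with AMI-5, 30.0 ± 6.91 CPM with AMI-1 and 31.1 ± 7.24 CPM in control (SD, n = 3 each), a change of 0.08 (adjusted p = 0.557) against control. There were 5.27, 4.77 and 5.77 antisense counts per 100 sense counts with AMI-5, 3.43, 2.98 and 2.94 with AMI-1, and 2.89, 2.77 and 2.87 in control.

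The promoter windows of the USP46 and SRRM2 pairs are shown because both genes of each pair start close together in RefSeq, while their antisense member rose and their sense gene did not. They are RefSeq windows on GRCh38.p14, from 250 bases before the first listed start to 50 after it, each on its own gene's strand, 5′ to 3′. Capitals mark the bases that lie in both windows of a pair, which are reverse complements of each other. The window of USP46-AS1 (USP46-DT in RefSeq) is chr4:52659156-52659455 on the plus strand and that of USP46 is chr4:52659252-52659551 on the minus strand. The window of SRRM2-AS1 is chr16:2752551-2752850 on the minus strand and that of SRRM2 is chr16:2752388-2752687 on the plus strand.
USP46-AS1: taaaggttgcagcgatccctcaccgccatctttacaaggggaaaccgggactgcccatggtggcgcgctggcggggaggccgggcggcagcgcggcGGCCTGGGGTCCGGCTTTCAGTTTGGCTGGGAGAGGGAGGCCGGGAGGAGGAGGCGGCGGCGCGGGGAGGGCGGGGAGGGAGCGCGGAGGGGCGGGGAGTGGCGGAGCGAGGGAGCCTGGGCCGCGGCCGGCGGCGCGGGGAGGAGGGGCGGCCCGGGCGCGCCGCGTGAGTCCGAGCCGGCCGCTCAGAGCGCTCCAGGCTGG
USP46: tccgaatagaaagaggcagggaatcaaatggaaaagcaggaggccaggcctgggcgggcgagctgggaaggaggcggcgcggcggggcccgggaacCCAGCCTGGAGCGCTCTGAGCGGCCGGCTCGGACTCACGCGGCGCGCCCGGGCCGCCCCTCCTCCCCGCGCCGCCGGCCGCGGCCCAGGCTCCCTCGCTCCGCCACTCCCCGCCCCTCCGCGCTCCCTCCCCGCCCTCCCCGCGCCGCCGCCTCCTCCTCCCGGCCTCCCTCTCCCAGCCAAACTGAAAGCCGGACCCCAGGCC
SRRM2-AS1: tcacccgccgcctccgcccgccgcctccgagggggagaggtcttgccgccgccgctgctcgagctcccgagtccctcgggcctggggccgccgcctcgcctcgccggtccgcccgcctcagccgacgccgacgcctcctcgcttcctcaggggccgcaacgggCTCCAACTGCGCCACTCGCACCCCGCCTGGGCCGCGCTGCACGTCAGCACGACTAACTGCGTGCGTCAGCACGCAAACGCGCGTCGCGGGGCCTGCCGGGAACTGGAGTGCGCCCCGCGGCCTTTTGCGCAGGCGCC
SRRM2: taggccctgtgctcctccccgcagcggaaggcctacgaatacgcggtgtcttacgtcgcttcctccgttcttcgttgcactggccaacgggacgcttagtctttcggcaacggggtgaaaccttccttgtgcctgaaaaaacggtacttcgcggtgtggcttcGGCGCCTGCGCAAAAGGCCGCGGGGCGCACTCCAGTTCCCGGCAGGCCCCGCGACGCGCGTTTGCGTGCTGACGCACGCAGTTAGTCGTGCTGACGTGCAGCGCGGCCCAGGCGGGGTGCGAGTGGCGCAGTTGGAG

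The USP46 windows share 204 bases and their starts lie 105 bases apart, and the SRRM2 windows share 137 bases with starts 38 bases apart, with the genes of each pair running away from each other. GENCODE 29 starts the SRRM2 genes elsewhere, so that they overlap there. The USP46-AS1 window holds 39 CpG dinucleotides and that of SRRM2-AS1 47, against a median of 14 over 35116 windows of all genes and of 14 over the 169 antisense members with a window. The windows of all genes take every listed start, while those of the members take only the first, here and for the letters counted below. Of 144 pairs with both windows, 27 shared bases. For HNRNPU-AS1 the window found through a synonym in RefSeq is that of HNRNPU itself, and it is included in the 169 windows and the 144 pairs. Among 16 of the 144 whose antisense member was called, 3 shared bases: USP46, SRRM2 and PCBP1. The letters GGGCGG of the GC box, on either strand, are in 41.4% of the 169 windows and in 45.0% of all windows. By the same count on either strand CCAAT is in 30.2% and 34.6%, TATAAA in 8.28% and 11.5%, and TGACNNNGC, the core of the antioxidant response element, in 16.0% and 13.3%. A match of letters is a description only.

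**Figure D3:**
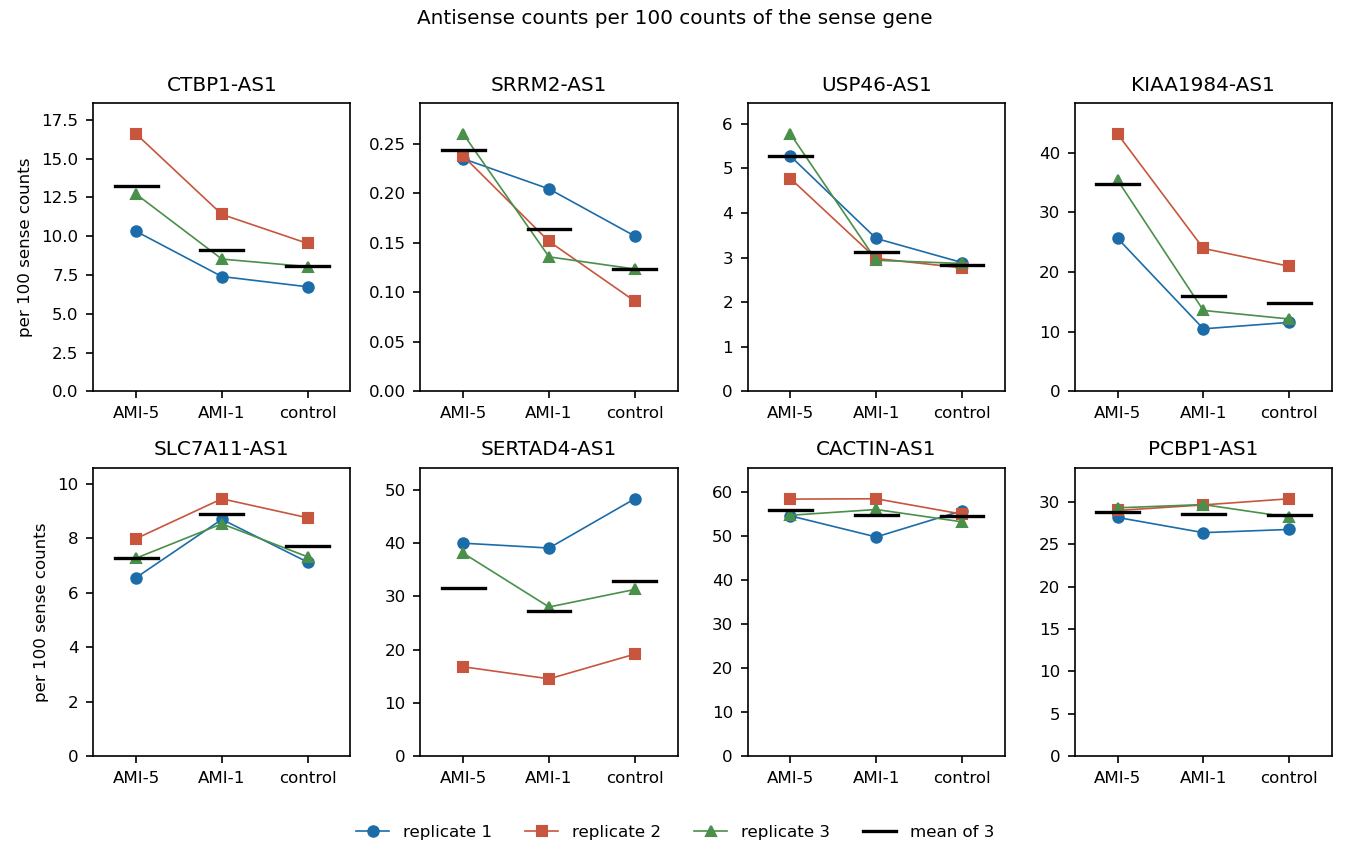
Antisense counts per 100 counts of the sense gene (y axes, from 0) for 8 pairs in each AMI-5, AMI-1 and control library, with lines joining libraries of the same number and bars at the mean of 3. The ratio is higher in every AMI-5 library than in every control library for CTBP1-AS1, SRRM2-AS1, USP46-AS1 and KIAA1984-AS1, and overlaps between the groups for SLC7A11-AS1, SERTAD4-AS1, CACTIN-AS1 and PCBP1-AS1.

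Another 5 members that rose with AMI-5 had smaller or less abundant changes. LBX2-AS1 and LBX2, a homeobox gene, rose together: LBX2-AS1 averaged 5.23 ± 1.92 CPM with AMI-5, 3.57 ± 0.794 CPM with AMI-1 and 3.65 ± 0.541 CPM in control (0.53, adjusted p = 0.0467, AMI-5 higher in 2 of 3 numbers), and LBX2 6.80 ± 2.35, 4.75 ± 1.54 and 4.67 ± 1.26 CPM (0.54, adjusted p = 0.0212). Of the antisense exon bases 31.2% lie in exons of LBX2. FLG-AS1, which spans the gene of the epidermal protein filaggrin, averaged 4.77 ± 0.551, 3.79 ± 0.287 and 3.07 ± 0.873 CPM in those groups (0.66, adjusted p = 0.0206), and FLG was not called (0.31, adjusted p = 0.113) except after the GC correction (0.0196). PITPNA-AS1 averaged 9.83 ± 1.42, 7.05 ± 0.632 and 7.74 ± 1.42 CPM (0.35, adjusted p = 0.0393), and PITPNA, a phosphatidylinositol transfer protein gene, was not called (-0.05, adjusted p = 0.567). GAS5-AS1 averaged 11.2 ± 1.90, 9.92 ± 2.25 and 8.86 ± 2.75 CPM (0.35, adjusted p = 0.0413). Its partner GAS5 is itself a non-coding host of small nucleolar RNAs and was not called (0.08, adjusted p = 0.496). A2ML1-AS1 had 15, 34 and 26 counts with AMI-5, 5, 32 and 23 with AMI-1, and 2, 20 and 7 in control, a rise of 1.38 ± 0.31 (log2, SE; adjusted p = 0.00983). The groups overlapped, with AMI-5 above control in 3 of 3 numbers. Calls ended without AMI-5 replicate 1 for all 5 (adjusted p-values of 0.0678 to 0.244) and without control replicate 3 for all 5 (0.114 to 0.254). They also ended without control replicate 1 (LBX2-AS1, PITPNA-AS1, GAS5-AS1 and A2ML1-AS1, 0.0530 to 0.243), without AMI-5 replicate 2 (FLG-AS1, PITPNA-AS1 and GAS5-AS1, 0.0915 to 0.169), without AMI-5 replicate 3 (LBX2-AS1 0.269, FLG-AS1 0.0945), without control replicate 2 (FLG-AS1 0.0790, PITPNA-AS1 0.0532) and without AMI-1 replicate 1 (LBX2-AS1 0.0625, PITPNA-AS1 0.0581, GAS5-AS1 0.0583). LBX2 lost its call without AMI-5 replicate 1 or 3 or control replicate 1 or 3 (0.115 to 0.141).

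Among the 13 members that fell with AMI-5, 8 did so together with their sense gene. The largest fall was that of SERTAD4-AS1, which overlaps the start of the gene for a SERTA domain protein. It had 7.23, 4.76 and 6.51 CPM with AMI-5, 9.04, 4.53 and 6.92 CPM with AMI-1, and 11.7, 7.68 and 8.89 CPM in control. The AMI-5 libraries lay below all control libraries, while the AMI-1 libraries overlapped both. The change was -0.61 ± 0.12 (log2, SE; adjusted p = 0.00412), and it was not called without AMI-5 replicate 1 (0.0894). SERTAD4 had 18.1, 28.4 and 17.1 CPM with AMI-5, 23.1, 31.2 and 24.7 CPM with AMI-1, and 24.2, 40.1 and 28.4 CPM in control, and fell by 0.56 ± 0.09 on the log2 scale (adjusted p = 0.00103), a call kept in all 9 fits that left out a library. Number 2 was the highest for the sense gene and the lowest for the antisense transcript.

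GAS6-AS1 and GAS6, the ligand of the receptors TYRO3, AXL and MER, fell alike. GAS6-AS1 averaged 4.36 ± 1.58 CPM with AMI-5, 4.69 ± 1.86 CPM with AMI-1 and 6.14 ± 2.42 CPM in control (SD, n = 3 each), a change of -0.49 ± 0.13 (adjusted p = 0.0207). GAS6 averaged 52.1 ± 16.7, 62.9 ± 23.2 and 72.7 ± 27.9 CPM in the same groups, a change of -0.46 ± 0.07 (adjusted p = 0.00105) that was called in all 9 fits without a library. SH3RF3-AS1, which runs away from the start of a ubiquitin ligase gene, averaged 4.24 ± 1.37, 4.31 ± 2.17 and 6.13 ± 2.49 CPM (-0.53, adjusted p = 0.0187), and SH3RF3 47.6 ± 12.6, 51.9 ± 9.46 and 62.1 ± 15.1 CPM (-0.38, adjusted p = 0.0053). COL4A2-AS1 lies within the gene of a type IV collagen chain of the basement membrane. It averaged 21.1 ± 5.70, 24.0 ± 6.17 and 26.6 ± 9.89 CPM (-0.31, adjusted p = 0.0437), and COL4A2 614 ± 164, 708 ± 190 and 777 ± 222 CPM (-0.33, adjusted p = 0.00379). The groups of these antisense members overlapped, with the AMI-5 library below the control library in 3 of 3 numbers. GAS6-AS1 was not called without any 1 of the AMI-5 libraries or control replicate 1 or 3 (0.0542 to 0.195), SH3RF3-AS1 without AMI-5 replicate 1 or 2 or control replicate 1 or 3 (0.0557 to 0.210), and COL4A2-AS1 without those or AMI-1 replicate 1 (0.0842 to 0.357). After the GC correction GAS6-AS1 had an adjusted p of 0.0586. SH3RF3 and COL4A2 lost their calls without AMI-5 replicate 1 or 2 or control replicate 1 (0.0530 to 0.0961).

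PCBP1-AS1, opposite the gene of a poly(C) binding protein, had 78.2, 60.6 and 82.9 CPM with AMI-5, 87.2, 73.5 and 86.5 CPM with AMI-1, and 95.2, 75.2 and 94.0 CPM in control. It fell by 0.25 ± 0.06 on the log2 scale (adjusted p = 0.0132) and PCBP1 by 0.28 ± 0.06 (adjusted p = 0.00516). Their ratio was 28.2, 29.01 and 29.3 antisense counts per 100 sense counts with AMI-5 and 26.8, 30.4 and 28.2 in control, so the ratios of the 2 groups overlapped. CACTIN-AS1, of which 54.1% of exon bases lie in exons of the splicing factor gene CACTIN, had a ratio of 54.6, 58.4 and 54.7 with AMI-5 against 55.8, 55.0 and 53.2 in control. It changed by -0.34 ± 0.09 (adjusted p = 0.0193) and CACTIN by -0.36 ± 0.08 (adjusted p = 0.00835). SPAG5-AS1, opposite a gene of the mitotic spindle, changed by -0.25 ± 0.07 (adjusted p = 0.0225) and SPAG5 by -0.22 ± 0.06 (adjusted p = 0.0245). IPO9-AS1, opposite the gene of a nuclear import receptor, changed by -0.24 ± 0.07 (adjusted p = 0.0461) and IPO9 by -0.20 ± 0.05 (adjusted p = 0.0212). The AMI-5 and control groups were apart for SPAG5-AS1 and IPO9-AS1 and for both sense genes. After the GC correction CACTIN-AS1 (0.241) and IPO9-AS1 (0.388) were not called. Without AMI-5 replicate 1 or 2 or control replicate 1 or 3 none of these 4 antisense members was called (0.0970 to 0.234), and SPAG5-AS1 (0.0535) and IPO9-AS1 (0.0885) were not called without AMI-1 replicate 1 either, nor IPO9-AS1 without control replicate 2 (0.0935).

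The sense genes of those 4 pairs depended on the same libraries. PCBP1 and CACTIN were not called without AMI-5 replicate 1 or 2 or control replicate 1 or 3 (adjusted p-values of 0.0532 to 0.125). IPO9 was not called without those, AMI-1 replicate 1 or AMI-5 replicate 3 (0.0549 to 0.220), and SPAG5 was not called without those 6 libraries or control replicate 2 (0.0560 to 0.216).

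In 5 pairs the antisense member fell and the sense gene was not called. LOXL1-AS1 overlaps the start of the gene for an enzyme that cross-links elastin and had 51.6, 40.5 and 49.7 CPM with AMI-5, 53.8, 43.4 and 44.4 CPM with AMI-1, and 65.5, 51.6 and 58.5 CPM in control. The highest AMI-5 library lay just below the lowest control library, and both round to the same value. The change was -0.31 ± 0.07 (log2, SE; adjusted p = 0.00868), and LOXL1 changed by -0.17 (adjusted p = 0.152). ZFHX4-AS1, which shares no exon base with its zinc finger homeobox gene, had 14.7, 20.3 and 16.0 CPM with AMI-5, 12.6, 17.9 and 15.8 CPM with AMI-1, and 18.2, 28.2 and 20.2 CPM in control. It changed by -0.37 ± 0.09 (adjusted p = 0.0113), with AMI-5 below control in 3 of 3 numbers, and ZFHX4 by -0.04 (adjusted p = 0.705). NCBP2-AS1, WWTR1-AS1 and SMARCA5-AS1 lie inside the genes of a cap-binding protein, of the Hippo pathway co-activator TAZ and of a chromatin remodelling ATPase. They changed by -0.44 (adjusted p = 0.0301), -0.40 (0.0210) and -0.40 (0.0473), while NCBP2 (0.11, adjusted p = 0.235), WWTR1 (-0.03, 0.789) and SMARCA5 (0.04, 0.711) were not called. SMARCA5-AS1 was not called after the GC correction (0.126). Without AMI-5 replicate 1 or 2 or control replicate 1 or 3 none of the 5 was called (0.0521 to 0.498). ZFHX4-AS1 (0.0655) and SMARCA5-AS1 (0.0625) were not called without control replicate 2 either, nor NCBP2-AS1 (0.0542) and SMARCA5-AS1 (0.0574) without AMI-1 replicate 1.

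Of the sense partners 32 were called with AMI-5 against control, 7 higher and 25 lower. That is 14.7% of 217, beside 10.9% of all genes, of which 3.44% were higher and 7.51% lower, and the median change was -0.01 (log2). Besides SLC7A11 and LBX2, the sense genes that rose were THAP9, HLTF, OCIAD1, LGALS8 and CDKN2B. THAP9, derived from a transposase, had 3.95, 6.31 and 3.46 CPM with AMI-5, 3.86, 4.41 and 4.38 CPM with AMI-1, and 2.28, 3.81 and 2.94 CPM in control (0.56 ± 0.17, adjusted p = 0.0402), and overlapped between AMI-5 and control, with AMI-5 higher in 3 of 3 numbers. Its antisense THAP9-AS1, at 48.7 ± 14.9 CPM with AMI-5 and 48.6 ± 16.7 CPM in control (SD, n = 3 each), changed by 0.02 (adjusted p = 0.916). FOXD2, a forkhead gene, had 2.07, 1.48 and 2.15 CPM with AMI-5, 3.51, 1.47 and 2.05 CPM with AMI-1, and 4.28, 2.18 and 2.81 CPM in control. The AMI-5 and control groups did not overlap, and the change was the largest fall among the sense partners called (-0.68 ± 0.19, adjusted p = 0.0288), while FOXD2-AS1 changed by -0.09 (adjusted p = 0.734). FOXD2 was not called after the GC correction (0.0901) or without AMI-5 replicate 1 or 2 or control replicate 1 or 3 (0.0869 to 0.302). THAP9 was not called after that correction (0.0651) or when AMI-1 library 1, AMI-5 library 1 or 2 or any 1 control library was left out (0.0573 to 0.287). SLC7A11, SERTAD4 and GAS6 were the 3 sense genes called in all 9 fits without a library. Of the 32, as few as 3 were called without AMI-5 replicate 1 or without control replicate 1, 4 without AMI-5 replicate 2 and 6 without control replicate 3. Over all genes these fits called 155, 320, 310 and 281, in the same order, against 2002 with all libraries.

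Across the 223 pairs the partners more often moved in the same direction than not. With AMI-5 against control 71 pairs were both higher and 70 both lower, 63.2% in all. In 48 pairs the antisense was higher and the sense lower, and in 34 the reverse. Pearson's r between the changes was 0.34 and Spearman's rho 0.33 over the 223 pairs. Pairs share libraries, and where exons overlap they may share reads, so this is a description. Here and between the compounds below, the agreement is given only for the blocked fit without the GC correction. It is not set against unmatched pairs of genes. Antisense members with at least 25% of exon bases in sense exons moved in the direction of the sense gene in 66.2% of 71 pairs, and those with no shared exon base in 58.6% of 29. Pairs that overlap the sense 3′ end had r = 0.49 (47 pairs), those inside the sense gene 0.33 (68 pairs) and those at the sense start 0.27 (73 pairs). The 18 pairs that run apart without overlap moved in the same direction in 55.6%, with a median change of 0.16 for the antisense members and -0.04 for the sense genes. Both members were called in 13 pairs, and they moved in the same direction in 10.

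**Figure D4:**
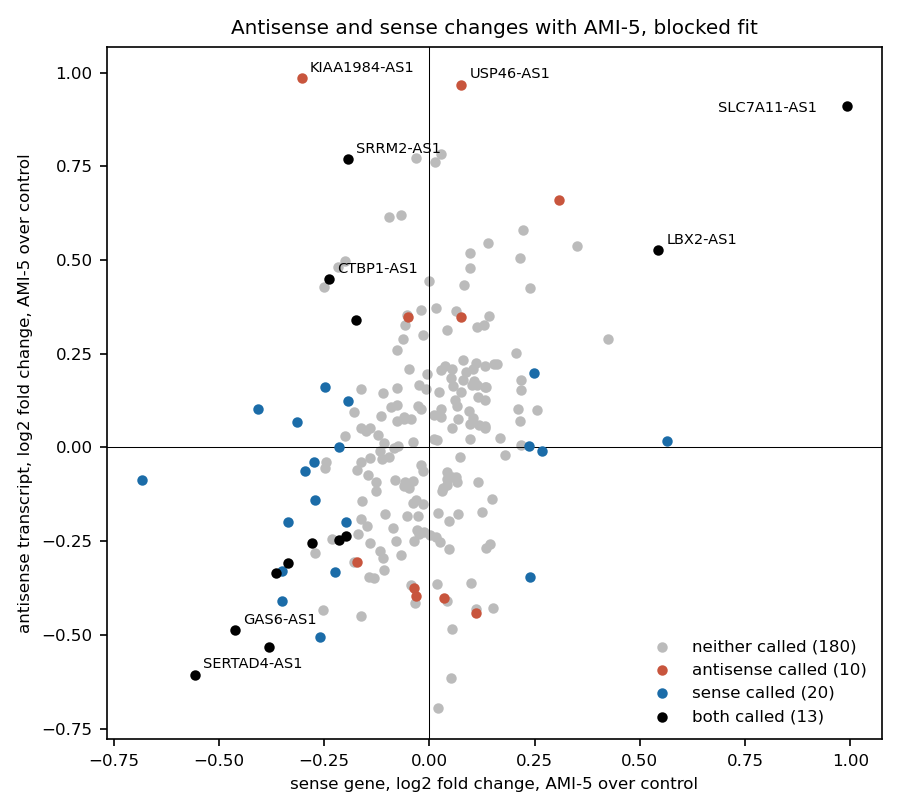
Change of the antisense transcript (y axis) against change of its sense gene (x axis) for 223 pairs, as log2 fold change of AMI-5 over control in the blocked fit, coloured by which member of the pair was called. Both members were called in 13 pairs, of which 10 lie in the quadrants of equal direction, and CTBP1-AS1 and SRRM2-AS1 lie at upper left.

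With AMI-1 against control 2 antisense members were called, both lower, which is 0.837% of 239 beside 0.41% of all genes (0.23% higher and 0.18% lower). The median change was -0.05 (log2), with 138 of 239 members below 0, against a median of -0.0019 over all genes. ZFHX4-AS1 fell, with the values given above: each AMI-1 library lay below every control library, and the change was -0.51 ± 0.09 (log2, SE; adjusted p = 0.00807). It was not called without AMI-1 replicate 1 (0.122), control replicate 1 (0.0738) or control replicate 2 (0.0983). ZFHX4 changed by -0.09 (adjusted p = 0.591). LOXL1-AS1 changed by -0.31 ± 0.07 (adjusted p = 0.0482) and was not called when AMI-1 library 1 or 3, AMI-5 library 1 or 2 or any 1 control library was left out (0.0726 to 0.406). No sense partner was called, and DESeq2 called 0. Of the 217 sense partners 31 had an unadjusted p under 0.05 in the blocked edgeR fit, beside 1851 of 18284 genes. After the GC correction 4 antisense members were called, all lower, with SERTAD4-AS1 (0.0126) and SH3RF3-AS1 (0.0255) added, together with 12 sense genes. These are 1.67% of the members and 5.53% of the sense genes, beside 3.44% of all genes in that fit.

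Changes were ranked only among members with a mean of at least 1 CPM in the higher group. The largest of these with AMI-1 were in scarce members and did not pass. A2ML1-AS1 changed by 0.97 (adjusted p = 0.272), STARD13-AS2 by 0.89 (0.376), GLIS3-AS1 by -0.80 (0.406), B4GALT4-AS1 by 0.61 (0.333) and SH3RF3-AS1 by -0.54 (0.109). The first 4 of them averaged under 2 CPM in every group. Under the same limit, CA5B-AS1 had the largest change with AMI-5 that did not pass (0.78, adjusted p = 0.119). It had 0.845 to 1.34 CPM with AMI-5, 0.701 to 1.01 CPM with AMI-1 and 0.432 to 1.03 CPM in control.

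Between the compounds, at the same dose and time, 9 antisense members were called and all were higher with AMI-5 than with AMI-1. That is 3.77% of 239 beside 5.1% of all genes, of which 1.62% were higher and 3.48% lower. The median difference over the members was 0.05 (log2), against -0.01 over all genes. The calls did not all lie in 1 direction in every fit: the GC correction gave 15 higher and 4 lower, the fit without AMI-1 replicate 3 gave 14 higher and 14 lower, and the fit without AMI-5 replicate 3 gave 6 higher and 2 lower. Over all genes these fits gave 908 higher and 1254 lower, 1220 higher and 2245 lower, and 333 higher and 1170 lower, in the same order. KIAA1984-AS1 differed by 1.05 ± 0.19 (95% interval 0.66 to 1.44, adjusted p = 0.00239) and was called in all 9 fits without a library. SLC7A11-AS1 differed by 0.64 ± 0.13 (0.36 to 0.92, adjusted p = 0.00855), and SLC7A11 by 0.92 ± 0.08 (adjusted p = 1.07e-06). USP46-AS1 differed by 0.89 (adjusted p = 0.0285), FBXL19-AS1 by 0.65 (0.0117), LBX2-AS1 by 0.59 (0.0443), PITPNA-AS1 by 0.47 (0.0130) and CTBP1-AS1 by 0.43 (0.0167), and C17orf76-AS1 is given above. FBXL19-AS1, at the start of a gene for an F-box protein, had 8.83, 8.12 and 8.15 CPM with AMI-5, 6.17, 4.24 and 5.59 CPM with AMI-1, and 6.96, 3.93 and 7.51 CPM in control. Its AMI-5 libraries lay above all others, yet against control it was not called (0.43, adjusted p = 0.0544) except after the GC correction (0.0123). The calls depended on single libraries: 1 of the 9 was called when AMI-1 library 1 was left out, 2 when AMI-5 library 1 or 2 was, 4 when AMI-1 library 2 was, 6 when AMI-5 library 3 was, 7 without control replicate 1 or 3, 8 without AMI-1 replicate 3 and all 9 without control replicate 2. The adjusted p-values of the lost calls ran from 0.0510 (C17orf76-AS1) to 0.265 (C17orf76-AS1). Calls over all genes fell as well, from 932 to 194 without AMI-1 library 1 and to 589 without AMI-1 library 2. They fell to 192 without AMI-5 library 1 and to 292 without AMI-5 library 2.

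For the 2 members called lower with both compounds against the shared controls, no difference between the compounds was called. Their calls with AMI-1 were lost without some single libraries, as given above. LOXL1-AS1 differed by 0.01 (95% interval -0.14 to 0.15, adjusted p = 0.979) and ZFHX4-AS1 by 0.13 (adjusted p = 0.441). SERTAD4-AS1 differed by -0.13 (adjusted p = 0.595) and SH3RF3-AS1 by 0.01 (-0.29 to 0.31, adjusted p = 0.981). The intervals given, for LOXL1-AS1 and SH3RF3-AS1, allow differences of up to those sizes. KLHL7-AS1 (0.76, adjusted p = 0.111), GLIS3-AS1 (0.68, 0.257), OCIAD1-AS1 (0.68, 0.264) and RBM26-AS1 (0.65, 0.0732) had large differences that did not pass.

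Of the sense partners 16 were called between the compounds, 6 higher and 10 lower with AMI-5. That is 7.37% of 217, beside 5.1% of all genes, of which 1.62% were higher and 3.48% lower. CDKN2B, an inhibitor of cyclin-dependent kinases, had 50.9, 56.2 and 53.5 CPM with AMI-5, 39.3, 40.7 and 37.1 CPM with AMI-1, and 44.0, 48.4 and 43.9 CPM in control. The 3 groups did not overlap, with control between the compounds. The difference was 0.46 ± 0.07 (log2, SE; adjusted p = 0.000332), called in all 9 fits without a library. Its antisense CDKN2B-AS1 (known as ANRIL) averaged 3.40 ± 0.239, 3.12 ± 0.175 and 3.39 ± 0.439 CPM with AMI-5, with AMI-1 and in control (SD, n = 3 each) and was not called (0.13, adjusted p = 0.699). The other sense genes higher with AMI-5 were SLC7A11, LBX2, ST7, GAS5 and LMO7, and those lower were LRP4, SERTAD4, BOK, NUCB1, GSN, GAS6, CIRBP, IPO9, TTC28 and VCAN. SLC7A11 and CDKN2B were the 2 of the 16 called in all 9 fits without a library. These were also the 2 that kept their call when library 1 of either compound was left out, where GAS6 had adjusted p-values of 0.373 without the AMI-1 library and 0.378 without the AMI-5 library, and BOK had 0.266 and 0.295. Of the 16, 3 were called when AMI-5 library 2 was left out, 9 when control library 1 or AMI-1 library 2 was, 11 when library 3 of AMI-5 or of control was, 14 when AMI-1 library 3 was and 15 when control library 2 was. Calls over all genes also fell without library 1 or 2 of either compound, as given above. Only SLC7A11-AS1 and LBX2-AS1 were called beside a called partner, both in the direction of the partner. Of the 223 pairs 67.7% moved in the same direction (r = 0.39, rho = 0.40).

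Of 29 names of antisense RNAs with a published role 17 were measured, and 2 of the 17, LOXL1-AS1 and GAS6-AS1, were called with AMI-5 against control, a share close to the 10.9% of all genes and 10.04% of all antisense members. HOXA-AS3, from the cluster of HOXA genes, averaged 22.6 ± 4.02 CPM with AMI-5, 23.0 ± 4.38 CPM with AMI-1 and 22.5 ± 4.66 CPM in control, and HOXA-AS2 6.07 ± 0.316, 5.88 ± 1.22 and 5.75 ± 1.33 CPM (SD, n = 3 each). TMPO-AS1, opposite a gene of the nuclear lamina, averaged 38.0 ± 13.6, 41.7 ± 15.6 and 45.6 ± 18.3 CPM (-0.25 with AMI-5 against control, adjusted p = 0.0519). MCM3AP-AS1 averaged 38.0 ± 1.68, 39.2 ± 3.09 and 38.2 ± 0.806 CPM, and TTN-AS1 14.6 ± 1.33, 15.6 ± 1.42 and 13.9 ± 1.51 CPM. ZEB1-AS1 and ZEB2-AS1, opposite transcription factors of the epithelial to mesenchymal transition, averaged 2.20 ± 1.04 and 0.656 ± 0.0581 CPM with AMI-5 and 2.41 ± 0.228 and 0.741 ± 0.0776 CPM in control. ST7-AS1, WDFY3-AS2 and MAPKAPK5-AS1 were not called in any contrast.

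Among pairs whose sense gene encodes a methyltransferase or demethylase, chosen by name after the values were seen, PRMT5 is an arginine methyltransferase and EHMT2 a lysine methyltransferase. PRMT5 had 111, 109 and 107 CPM with AMI-5, 113, 120 and 114 CPM with AMI-1, and 120, 130 and 125 CPM in control. The AMI-5 libraries lay below the control libraries without overlap, and the change was -0.20 ± 0.06 (log2, SE; adjusted p = 0.0285). PRMT5-AS1 averaged 42.7 ± 1.59, 47.4 ± 3.22 and 49.1 ± 3.10 CPM in the 3 groups (-0.20, adjusted p = 0.0699). EHMT2 averaged 61.0 ± 11.4, 68.9 ± 13.0 and 73.1 ± 15.3 CPM (-0.26, adjusted p = 0.0199), and EHMT2-AS1 2.13 ± 0.340, 2.76 ± 0.362 and 3.04 ± 0.510 CPM (-0.51, adjusted p = 0.0573). Both antisense genes overlap the 3′ end of their sense gene. PRMT5 was not called without AMI-1 replicate 1 or any 1 AMI-5 or control library (0.0638 to 0.209), and EHMT2 was not called after the GC correction (0.118) or without AMI-5 replicate 1 or 2 or control replicate 1 or 3 (0.129 to 0.184). ASH1L-AS1 with ASH1L and KDM4A-AS1 with KDM4A were not called.

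Other named non-coding rows gave a comparison. Of 34 LINC transcripts 4 rose and 0 fell with AMI-5 against control (median 0.13), and of 25 host genes 2 rose and 2 fell (median 0.03), while none of 6 intronic or 2 overlapping transcripts was called. Of all genes 10.9% were called in this contrast, 3.44% higher and 7.51% lower. Of 30 measured genes of nuclear RNA decay and termination, which limit antisense RNA, 1 rose and 4 fell with AMI-5, to be read against the same shares of all genes. INTS3, of the Integrator complex, averaged 104 ± 6.03 CPM with AMI-5 and 91.0 ± 4.67 CPM in control (0.19, adjusted p = 0.0406). EXOSC10, the nuclear exosome nuclease, averaged 135 ± 7.73 CPM with AMI-5 and 156 ± 6.65 CPM in control (-0.21, adjusted p = 0.0207). INTS1, ZC3H18 and CPSF3L fell by 0.38, 0.21 and 0.24 on the log2 scale (adjusted p = 0.00425, 0.0445 and 0.0265). Of 11 measured genes that act on double-stranded RNA, EIF2AK2, the kinase PKR, rose (0.22, adjusted p = 0.0444). Calls in these lists come from the blocked fit with all libraries. Their dependence on single libraries or on the GC correction is not given. With AMI-1 against control none of these lists had a called gene.

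The 3 members found only in the AMI-5 table were MATN1-AS1, EHHADH-AS1 and STK24-AS1, at 6 to 22 counts per library. The lowest mean count of a row is 10 in either table, and these 3 rows are in 1 of them. Because both tables hold the same controls, these rows are present through their AMI-5 counts. That selection favours higher AMI-5 values, so a test of AMI-5 against control cannot be read for them, and no conclusion is drawn. A blocked fit of that table alone called none of the 3.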

How the data were processed

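Poly-A RNA of 9 HMEC-1 libraries was sequenced. The authors deposited raw counts per gene in a table for each compound, with the same 3 control libraries in both. BWA, bedtools and the build hg19 are named per the submitters' processing notes. No version, gene annotation or strand setting is given in the sources used here. The 18293 rows present in both tables entered 1 fit of all 9 libraries, and filterByExpr removed 9 of them. TMM scaling and edgeR 4.0.16 (quasi-likelihood F-test, robust; R 4.3.3, limma 3.58.1) were used, with Benjamini-Hochberg adjustment over 18284 genes and a threshold of 0.05. CPM are on TMM-scaled library sizes.

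The design without a block was set as the first fit. Libraries of the same number share a label prefix, and their deviations from the group means correlated at 0.431 to 0.871 (9 pairs), against -0.804 to 0.204 for different numbers (18 pairs), so values come from the fit with the number as a block. Alternatives were DESeq2 1.42.0 (Wald test, or its size factors), no filter, only the groups compared, 1 table alone, leaving out each library, and a lowess correction (span 0.3) for transcript GC content, known for 95.7% of genes. The edgeR fits with and without the block were also run on counts simulated from the blocked fit, and the outcome is not reported here. The GC correction, pairing and promoter steps were not part of that run. Named members were those called, the 8 most abundant, the 5 with the largest change in each contrast and those of a list with a published role, with partners. The largest changes were taken among members with a mean of at least 1 CPM in the higher group. Members and lists were chosen with earlier results of these data known. One pair that is included in the counts is not reported here by name.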

Additional observations from a re-analysis of the deposited data

How the results depend on the processing

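The fit without a replicate block called 0 antisense transcripts and 0 sense partners in all 3 contrasts, also without any 1 library, and 0 genes in all (0 to 1 in AMI-1 against control, 0 in AMI-5 against control and 0 to 2 in AMI-5 against AMI-1 when a library was left out). With the replicate block, which follows the pairing by number, the antisense calls were 2 in AMI-1 against control, 24 in AMI-5 against control and 9 in AMI-5 against AMI-1. The sense calls were 0, 32 and 16, and the calls over all genes 75, 2002 and 932, in the same order. The block with a GC correction gave 4, 30 and 19 antisense calls, 12, 46 and 37 sense calls, and 629, 2494 and 2162 over all genes. The Wald test of DESeq2 called 3, 19 and 36 genes, with 0 antisense transcripts and 1 sense partner, in AMI-5 against AMI-1. The blocked fit of the AMI-5 table alone, chosen after seeing the data, called 45 antisense transcripts. Calls over all genes were not counted for that fit, so the 45 cannot be set against a share of all genes.

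Leaving out 1 library at a time under the block moved the counts in both directions. Antisense calls ran from 0 to 3, from 3 to 43 and from 1 to 28, sense calls from 0 to 3, from 3 to 68 and from 2 to 56, and calls over all genes from 14 to 354, from 155 to 4283 and from 192 to 3465. One direction turned: LOXL1 in AMI-5 against AMI-1 stood at 0.16 with the GC correction (adjusted p = 0.00432, edgeR), against -0.03 in the blocked fit without it (adjusted p = 0.898), and the cause was not tested. Most antisense transcripts had few counts, which limits what the 9 libraries can show for them.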
